A study of Mus musculus with 7 samples.

Results

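The tumour necrosis factor (TNF) family costimulators considered here are 9 genes taken by their symbols from the 32285 genes listed in each count matrix: the receptors Cd40, Tnfrsf4 (OX40), Tnfrsf9 (4-1BB), Tnfrsf18 (GITR) and Cd27, and the ligands Cd40lg, Tnfsf4 (OX40L), Tnfsf9 (4-1BBL) and Cd70. All 9 were listed once in every matrix. They were followed across the cells of orthotopic NSCG gliomas in C57BL/6 mice, a line that carries EGFRvIII and mCherry and is stated to lack Arf/Ink4a, in 7 droplet single-cell RNA libraries collected at about day 14. The mice were 7 to 10 weeks old, and each library pooled at least 2 of them, so that a library is 1 replicate. A single library came from mice that received nothing (UT), and 2 came from isotype controls dosed with IgG2b at 10 mg/kg (IgG). In 2 further libraries B20, which blocks VEGF, was given at 5 mg/kg together with anti-PD-L1 at 10 mg/kg (BP). The BPI library adds IPI-145 at 10 mg/kg, a compound that blocks the delta and gamma forms of PI3K, to the BP antibodies. The CD40 library came from mice that had 2 doses of 100 µg of agonist anti-CD40 antibody, 5 days apart. IgG, BP and BPI mice were dosed in 3 rounds. Whether the CD40 mice also received a dendritic cell vaccine is not clear from the labels. All tumours came from the 1 line.

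These receptors bind trimeric ligands on neighbouring cells and signal through TRAF adaptors to the NF-kB pathways. CD40 sits on antigen-presenting cells (B cells, dendritic cells, macrophages) and is engaged by CD40 ligand, which activated helper T cells display, and the signal raises costimulatory molecules and cytokines in the presenting cell. OX40, 4-1BB, GITR and CD27 sit on T cells and natural killer (NK) cells, and regulatory T cells are known for high OX40, 4-1BB and GITR. Their ligands are borne mainly by activated presenting cells. In glioma the presenting cells include resident microglia and monocyte-derived macrophages, and agonist antibodies to CD40 are used to activate such cells.

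After filtering, 48588 cells were kept, from 5373 to 9650 per library, with 68997476 to 186793886 unique molecular identifier (UMI) counts over all barcodes of a library. Cells were clustered with the 9 genes left out, and clusters were called X-like from marker genes; 15.9% of the cells stayed unnamed, between 9.87% in BPI and 30.2% in UT. The markers that named the classes had these levels: in every library with at least 20 cells of the class, Cd79a lay at or above 1220 counts per 1000000 UMIs of the class (CPM) in B-like cells, Foxp3 at or above 284 CPM in regulatory T-like cells, Ccr7 at or above 1330 CPM in mature dendritic-like cells and P2ry12 at or above 998 CPM in microglia-like cells, while none of these 4 genes passed 3.96 CPM in tumour-like cells. The labels state no batch, but the numbers in their library names run on within sets: IgG replicate 1, BP replicate 2 and BPI in one, IgG replicate 2 and CD40 in another, and BP replicate 1 and UT each alone. There were 709 and 858 microglia-like cells in IgG replicate 2 and CD40 against 1 and 2 in BP replicate 1 and UT, and the latter libraries held most of the mature dendritic-like cells (59 and 27, against 0 in both IgG libraries and CD40). UT used another barcode list than the other libraries, and pairs of libraries shared between 0 and 26 cell barcodes. Where a value from a single library is printed below with a range in brackets, the range is an exact 95% Poisson interval that covers counting error only.

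The 9 genes were sparse, and the cells that carried them differed by gene. Cd40 had 7251 UMIs in all kept cells, of which 78.4% were in monocyte/macrophage-like cells. Conventional CD4 T-like cells held 52.6% of the 559 Cd40lg UMIs, and regulatory T-like cells held 34.8% of the 6137 Tnfrsf4 UMIs. Tumour-like cells were the largest class and held most of the UMIs of all genes together. They held 86.7% of the 5639 Tnfsf9 UMIs, 39.8% of the 4608 Cd27 UMIs and 32.1% of the 7287 Tnfrsf18 UMIs, at levels that never passed 13.4 CPM. Tnfsf4 and Cd70 had only 199 and 156 UMIs in all. Of 189 pairs of a gene and a class, 60 had a mean over libraries of at least 10 CPM.

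Cd40, on chromosome 2 at 165055627 to 165072948 of GRCm38 (plus strand), was highest in dendritic-like cells that carried Ccr7 and Fscn1, the marks of mature, migrating dendritic cells. In these cells Cd40 stood at 441 CPM in UT and 325 CPM in BP replicate 1, the only libraries with 20 or more of them. The other dendritic-like cells stood at 135 CPM in BP replicate 1, 164 CPM in BP replicate 2 and 245 CPM in BPI, so the classes did not overlap. B-like cells stood at 162 CPM in UT, 186 CPM in BP replicate 1 and 80.1 CPM in CD40, a range that overlapped the other dendritic-like cells. The mean over libraries was 383 ± 82.4 CPM in mature dendritic-like cells (SD, n = 2), 181 ± 56.9 CPM in the other dendritic-like cells (SD, n = 3), 143 ± 55.5 CPM in B-like cells (SD, n = 3) and 129 ± 123 CPM in monocyte/macrophage-like cells (SD, n = 7). These means come from different libraries, and neighbours in that order overlapped from the other dendritic-like cells down. Within BP replicate 1 both B-like (186 CPM) and monocyte/macrophage-like cells (155 CPM) read above the other dendritic-like cells (135 CPM), and in UT monocyte/macrophage-like cells (321 CPM) read above B-like cells (162 CPM).

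**Figure D1:**
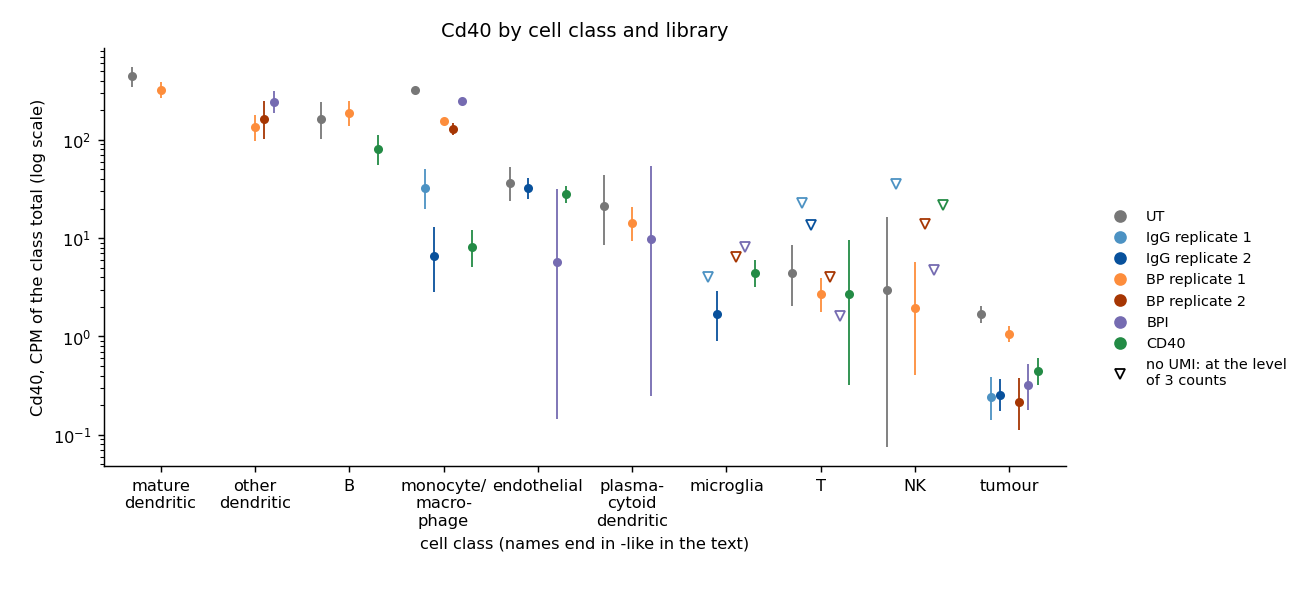
Cd40 in counts per 1000000 UMIs of the class (log axis) for 10 cell classes, 1 point per library with at least 20 cells and its exact 95% Poisson interval; open triangles mark a library with no Cd40 UMI at the level that 3 counts would give. Mature dendritic-like cells sit at 325 and 441 CPM, monocyte/macrophage-like cells spread from 6.61 to 321 CPM, and tumour-like cells stay at or below 1.69 CPM.

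Endothelial-like cells carried Cd40 at a lower level, at 36.4 CPM in UT, 32.0 CPM in IgG replicate 2, 27.8 CPM in CD40 and 5.67 CPM (1 UMI) in BPI. Their level was higher than in tumour-like cells by 5.80 ± 0.51 on the log2 scale (SE, 4 libraries, edgeR quasi-likelihood test with library as a block, adjusted p = 9.94e-06), where 47% of all genes were called. In the same contrast Cd27 was also higher (1.13 ± 0.42, adjusted p = 0.0462), Tnfsf9 was lower (-3.01 ± 0.45, adjusted p = 0.000382) and so was Tnfrsf18 (-1.62 ± 0.57, adjusted p = 0.0389). Endothelial-like cells held only 7 Tnfsf9 and 11 Tnfrsf18 UMIs in all, so the sizes of these last differences rest on few counts. The free RNA estimated in endothelial-like sums lay between 41.9% and 48.8% in these libraries. That estimate rests on UMIs of the tumour marker genes and is capped at 50%. UMIs of those genes made by the endothelial-like cells themselves would raise it. The part of free RNA in these levels was not tested beyond the subtraction given next. The Tnfrsf18 and Cd27 calls were lost in 9 and 7 of 15 alternatives. With the free RNA subtracted the Cd40 difference kept its direction and its call, as it did in all 15.

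The cells named microglia-like had little Cd40. UT and BP replicate 1 held 2 and 1 of them, too few for a level. Unnamed clusters with C1qa among their leading genes read 92.1 CPM (mye03), 58.2 CPM (mye04), 77.0 CPM (mye16) and 4.38 CPM (mye13). They are not counted in this class, and whether they hold microglia was not tested. IgG replicate 1, BP replicate 2 and BPI gave no Cd40 UMI in 135, 152 and 126 cells, IgG replicate 2 gave 1.71 CPM (13 UMIs) and CD40 gave 4.39 CPM (42 UMIs, 3.17 to 5.94). Against monocyte/macrophage-like cells of the same libraries Cd40 was lower by edgeR's quasi-likelihood test (log2 difference -3.35 ± 0.77, 5 libraries, adjusted p = 0.00597), with 42.5% of all genes called. Cd27 differed the other way (1.53 ± 0.41, adjusted p = 0.0124), reaching 13.5 CPM in the microglia-like cells of IgG replicate 2 and 14.8 CPM in those of CD40. Tnfsf9 did not pass the test (-1.27 ± 0.52, adjusted p = 0.0751). The macrophage sub-cluster with the most Lyve1, a mark of macrophages at the brain's borders, read 6.37 CPM for Cd40 over all libraries. Every other monocyte/macrophage-like sub-cluster read higher, so leaving this one out could only widen the Cd40 difference. It moved to -4.98, in a fit chosen after seeing the data and run at a limit of 10 cells.

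Monocyte/macrophage-like cells gave the widest spread of Cd40 of any class. The level was 321 CPM in UT, 32.7 CPM in IgG replicate 1, 6.61 CPM in IgG replicate 2, 155 CPM in BP replicate 1, 130 CPM in BP replicate 2, 250 CPM in BPI and 8.09 CPM in CD40. Both BP libraries and BPI lay above both IgG libraries, and UT, which received nothing, lay above them all. Thinned to 1000 UMIs per cell, 28.5% of the UT cells of this class had a Cd40 UMI (82.0% without thinning, median depth 7862 UMIs), against 0.174% of the UT tumour-like cells (3.41% without thinning, median depth 20791 UMIs). No cell was left out by the thinning, since each had at least 1000 UMIs.

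The comparison of each treatment with IgG asks whether the costimulators shifted within a cell class under that treatment. It was fitted in the classes with at least 20 cells in each of the 6 libraries other than UT: tumour-like, T-like and monocyte/macrophage-like. In monocyte/macrophage-like cells Cd40 was higher in BP than in IgG by 3.05 ± 0.65 on the log2 scale, an 8.28-fold difference, but did not pass edgeR's quasi-likelihood test (adjusted p = 0.22, unadjusted p = 0.00127). No gene passed in that comparison (0% of 11732), with 1 of the 3 costimulators that passed the low-count filter, Cd40, at an unadjusted p under 0.05, as were 856 of all 11732 genes. In BPI the difference was 4.24 ± 0.72 (adjusted p = 0.0901), where 0.17% of genes were called. DESeq2 called Cd40 in both comparisons (3.00, adjusted p = 0.00161 in BP, and 4.24 in BPI). The share of all genes that DESeq2 called is not given here, and the shares above are those of edgeR, so nothing further is read from these calls. Pooling UT with IgG as the control brought the BP difference to -0.01 (adjusted p = 1).

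The cells behind these sums were not alike between libraries. The sub-cluster with the most Lyve1 made up 123 of the 162 monocyte/macrophage-like cells in CD40 and 42 of the 61 in IgG replicate 2, but 1 of the 1779 in BP replicate 1. Sub-clusters mye17 to mye19 came almost only from BP replicate 1, mye01 from UT, and mye12 and mye14 from the set of IgG replicate 1, BP replicate 2 and BPI. Outside the Lyve1 sub-cluster Cd40 stood at 325 CPM in UT, 70.8 CPM in IgG replicate 1, 29.5 CPM in IgG replicate 2, 155 CPM in BP replicate 1, 167 CPM in BP replicate 2, 263 CPM in BPI and 47.1 CPM in CD40. The order of treatments was the same, and the differences were smaller: 1.68 ± 0.56 for BP (adjusted p = 0.674), 2.70 ± 0.63 for BPI (adjusted p = 0.39) and -0.28 ± 0.73 for CD40 (adjusted p = 0.998), in a fit chosen after seeing the data. That fit used a limit of 10 cells, since IgG replicate 2 kept 19 cells with 4 Cd40 UMIs (29.5 CPM, 8.03 to 75.4). Within the one set that holds an IgG, a BP and the BPI library, all monocyte/macrophage-like cells read 32.7, 130 and 250 CPM, 1 library each.

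**Figure D2:**
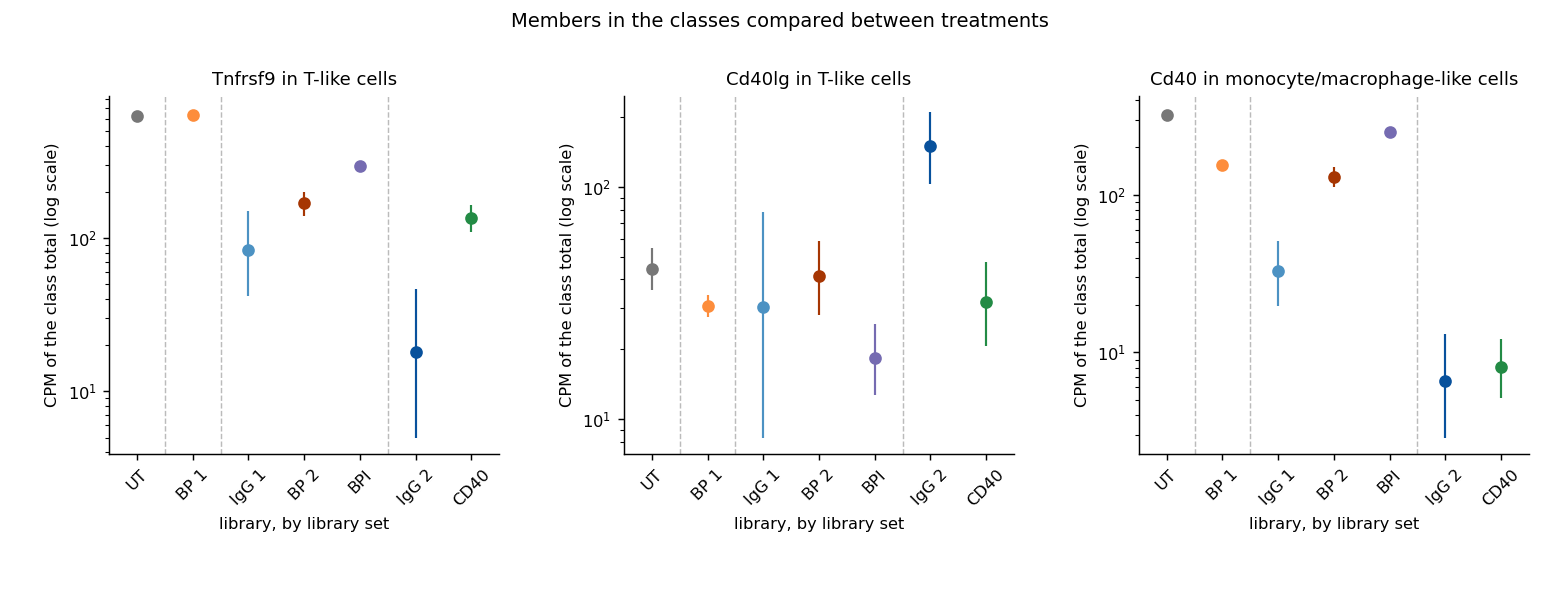
Tnfrsf9 and Cd40lg in T-like cells and Cd40 in monocyte/macrophage-like cells, in counts per 1000000 UMIs of the class (log axes), 1 point per library with its exact 95% Poisson interval, ordered by library set (dashed lines separate the sets). Tnfrsf9 is lowest in the IgG libraries (83.5 and 18.2 CPM), Cd40lg is highest in IgG replicate 2 (150 CPM), and Cd40 is lowest in IgG replicate 2 and CD40 (6.61 and 8.09 CPM).

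In the library from mice given the CD40 agonist, microglia-like cells read a Cd40 level of 4.39 CPM (3.17 to 5.94) beside 1.71 CPM (0.909 to 2.92) in IgG replicate 2, 1 library each with intervals for counting error only, and IgG replicate 1, BP replicate 2 and BPI had no UMI, which at 3 counts allows up to 3.98, 6.47 and 8.04 CPM; this class was too small in BP replicate 1 for the treatment fit, so the difference was not tested. Its monocyte/macrophage-like cells read 8.09 CPM (5.13 to 12.1) beside 6.61 CPM (2.86 to 13.03) in IgG replicate 2, the library of the same set, and its endothelial-like cells 27.8 CPM (22.6 to 34.0) beside 32.0 CPM (24.97 to 40.5). Its B-like cells were the lowest of the 3 libraries with 20 or more, at 80.1 CPM (55.8 to 111) beside 162 CPM (101 to 245) in UT and 186 CPM (137 to 248) in BP replicate 1. The IgG libraries held 1 and 7 B-like cells, too few for a level. The fitted difference from IgG in monocyte/macrophage-like cells was -1.12 ± 0.84 (adjusted p = 1), and it turned to 0.34 (adjusted p = 1) without IgG replicate 1. Over the 3 classes no costimulator passed edgeR's test in this comparison (0% of genes called in each class), 3 gene and class pairs had an unadjusted p under 0.05, all in T-like cells, where 304 of all 9222 genes were below it, and DESeq2 called 0. These were Cd40lg (-1.71 ± 0.67, unadjusted p = 0.0151), Tnfrsf9 (1.48 ± 0.66, unadjusted p = 0.0304) and Cd70. Cd70 had no UMI in the T-like cells of either IgG library, so it passed the low-count filter only through the other libraries and nothing is read from its p; it had 11 UMIs in those of CD40. These 11 came from 3 of 130 cells, and 9 of them from 1 CD8 T-like cell. The CD40 group has 1 library, so its spread is taken from the other groups.

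A list of 16 genes that CD40 signalling is known to induce in presenting cells was tested in monocyte/macrophage-like cells. None passed edgeR's test in CD40 against IgG, where 0% of all genes were called, with a median log2 difference of 0.51 beside -0.000487 over all genes. The smallest p values belonged to Ccl22, a chemokine for regulatory T cells, Il12b, the p40 subunit of interleukin-12 and interleukin-23, and Birc3, an inhibitor of apoptosis that binds TRAF proteins. Ccl22 read 9.15 CPM in CD40, 4.08 CPM in BPI, 3.80 CPM in BP replicate 1 and 4.01 CPM in UT, with no UMI in BP replicate 2 or either IgG library. Il12b read 41.9 CPM in CD40, 36.0 CPM in BPI, 0.115 CPM (2 UMIs) in BP replicate 1, 25.7 CPM in BP replicate 2 and 4.33 CPM in UT, with no UMI in either IgG library. No UMI at 3 counts allows up to 5.17 and 2.48 CPM in the monocyte/macrophage-like cells of IgG. Ccl22 and Il12b thus entered the test only through the other libraries, and nothing is read from their p or its rank. Birc3 read 67.2 CPM in CD40 beside 51.7 and 22.3 CPM in IgG. In BPI, 1 library whose spread is taken from the other groups, 2 of the 16 were called, where 0.17% of all genes were. Fas, the death receptor, read 97.9 CPM beside 8.61 and 3.31 CPM in IgG (log2 difference 4.65 ± 0.59). Those IgG levels rest on few UMIs, since 3 counts would give 5.17 and 2.48 CPM there, so the size of the difference is uncertain. Il6 read 52.3 CPM but had 1 UMI in the IgG libraries together, so it entered the test through the libraries where it is present and nothing is read from its call. The Lyve1 sub-cluster made up 33 of 76 and 42 of 61 monocyte/macrophage-like cells in IgG and 27 of 578 in BPI, and its part in these differences was not tested. The list's median was 2.28 beside -0.09 over all genes. In BP none passed (smallest adjusted p 0.204, Fas), and the median was 1.30 beside 0.00229. These medians include genes with no UMI in IgG, whose fitted values are not bounds, and the comparisons share their IgG libraries.

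Among the other dendritic and myeloid receptors, dendritic-like cells as a whole differed from monocyte/macrophage-like cells in 4 genes with UMIs in both classes, where 23.6% of all genes were called. Tnfrsf4 was higher by 5.53 ± 0.41 (edgeR adjusted p = 6.31e-06), Tnfrsf18 by 4.27 ± 0.29 (adjusted p = 3.97e-06), Tnfrsf9 by 3.01 ± 0.46 (adjusted p = 0.000759) and Tnfsf9 by 1.69 ± 0.47 (adjusted p = 0.0227). Cd70 had 21 UMIs in dendritic-like cells of the 4 libraries and no UMI in monocyte/macrophage-like cells of any of the 7; it passed the low-count filter only through the dendritic-like sums, so its call says nothing further. Cd40 did not differ beyond its error (0.13 ± 0.20, adjusted p = 0.703). In B-like cells 1 of 5 genes tested differed from monocyte/macrophage-like cells: Tnfrsf18 was higher by 2.29 ± 0.70 (adjusted p = 0.0262), with 25.7% of all genes called, at 36.8 CPM in UT, 7.92 CPM in BP replicate 1 and 18.3 CPM in CD40. That call was lost in 3 of 14 alternatives.

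Among dendritic-like cells Tnfrsf4 and Tnfrsf9 were found mainly in the mature ones. Tnfrsf4 stood at 354 CPM in UT and 167 CPM in BP replicate 1 in mature dendritic-like cells, and at 0 UMIs in the other dendritic-like cells of both BP libraries and 1 UMI in those of BPI. Tnfrsf9 read 151 CPM in UT and 247 CPM in BP replicate 1 in the mature cells, and the other dendritic-like cells of BP replicate 1, BP replicate 2 and BPI had 1, 0 and 0 UMIs. Only BP replicate 1 had 20 cells of both kinds, so no test was made at that limit. Plasmacytoid dendritic-like cells were low in Cd40, at 21.4 CPM in UT, 14.3 CPM in BP replicate 1 and 9.75 CPM (1 UMI) in BPI.

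T-like cells were divided by cluster (regulatory T-like) and otherwise by UMIs of Cd4, Cd8a, Cd8b1 and Foxp3, and cells that met no rule stayed in no subset. OX40, 4-1BB and GITR were each highest in regulatory T-like cells. Tnfrsf4, which prolongs T cell survival after activation, read 2010 CPM in UT, 1418 CPM in BP replicate 1, 692 CPM in BP replicate 2 and 1448 CPM in BPI in regulatory T-like cells. No conventional CD4 T-like library reached these levels: they read 356, 539, 321 and 34.3 CPM in the same order, the last from 2 UMIs. CD8 T-like cells read 76.0, 47.0, 8.91 and 26.8 CPM there and 2.84 CPM (1 UMI) in CD40. NK-like cells had no Tnfrsf4 UMI in 5 of 6 libraries. Regulatory T-like cells lay above CD8 T-like cells by 5.04 ± 0.21 (edgeR adjusted p = 2.54e-35), in a contrast where all 4 costimulators tested and 23.7% of all genes were called.

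Tnfrsf9, a receptor of recently activated T and NK cells, read 1980 CPM in UT, 1559 CPM in BP replicate 1, 384 CPM in BP replicate 2 and 956 CPM in BPI in regulatory T-like cells. CD8 T-like cells read 557, 362, 158 and 280 CPM in the same libraries and 76.8 CPM in CD40, so each library kept the order while the classes overlapped across libraries. The difference was 1.68 ± 0.17 (edgeR adjusted p = 1.72e-13). Conventional CD4 T-like cells, at 466, 661, 168 and 34.3 CPM (2 UMIs in BPI), did not differ from CD8 T-like cells beyond their error (-0.18 ± 0.29, adjusted p = 0.891). Tnfrsf18 read 1336, 781, 365 and 672 CPM in regulatory T-like cells, above the conventional CD4 T-like cells of every library (298, 255, 244 and 240 CPM), and above CD8 T-like cells by 2.58 ± 0.19 (adjusted p = 3.85e-20). A UMI of all 3 of Tnfrsf4, Tnfrsf9 and Tnfrsf18 was found in 85.3% of the 34 regulatory T-like cells of UT, 64.5% of 220 in BP replicate 1, 15.0% of 20 in BP replicate 2 and 43.2% of 37 in BPI, against 13.2%, 9.35%, 1.74% and 2.61% of CD8 T-like cells. Conventional CD4 T-like cells lay between them in each library, at 45.3%, 50.5%, 8.70% and 3.45%. The CD8 T-like cells were the deeper in each of these libraries, with medians of 7515, 7115, 3385 and 3007 UMIs beside 4272, 4020, 2465 and 2178 UMIs.

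**Figure D3:**
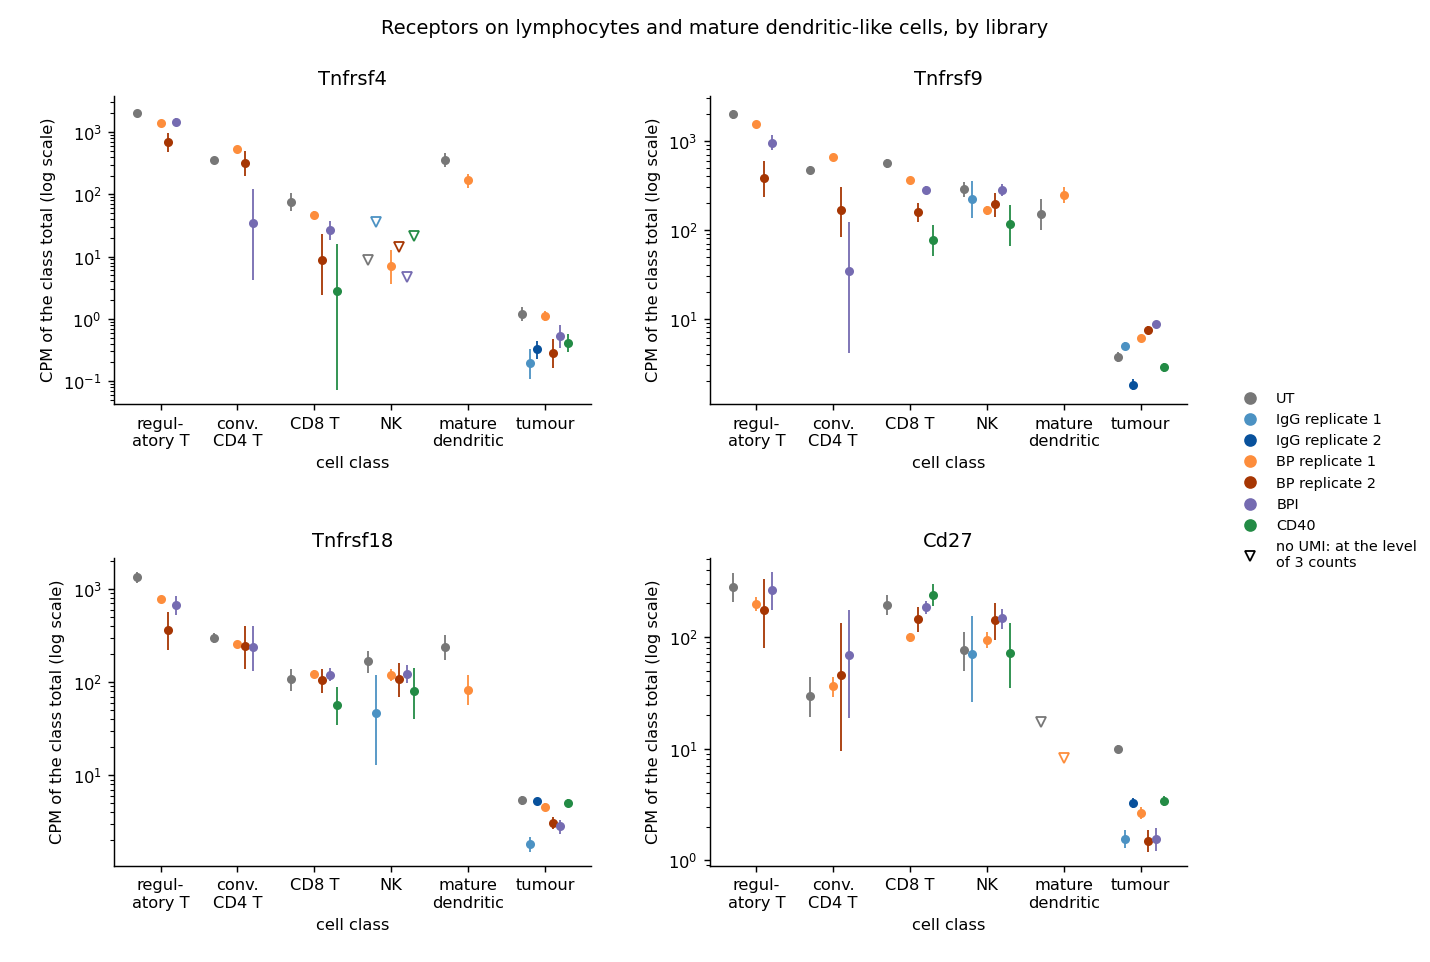
The receptors Tnfrsf4, Tnfrsf9, Tnfrsf18 and Cd27 in counts per 1000000 UMIs of the class (log axes), 1 point per library with at least 20 cells and its exact 95% Poisson interval; open triangles mark a library with no UMI at the level that 3 counts would give. Regulatory T-like cells are highest for Tnfrsf4, from 692 to 2010 CPM, and conventional CD4 T-like cells are low for Cd27, from 29.8 to 68.5 CPM.

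The promoters of these 3 receptors are shown because their levels were correlated across cell classes. Over 67 sums of a class in a library, log2(CPM + 10) of Tnfrsf9 and Tnfrsf18 correlated with Pearson's r of 0.91, Tnfrsf4 and Tnfrsf18 with 0.81, and Tnfrsf4 and Tnfrsf9 with 0.79, a description over sums that share libraries and depth. Cd27 was as close to Tnfrsf18 (0.79) and Tnfrsf9 (0.76) but less so to Tnfrsf4 (0.55), so the 3 are not a group apart, and its window, not printed, held neither of the motifs below. The sequences are the 250 bases before a RefSeq start on GRCm38.p6, 5′ to 3′, all on the plus strand. They were searched on both strands for the NF-kB consensus, by its name, and for the STAT-type pattern TTCNNNGAA, and capitals mark a match of either.
Tnfrsf4, chr4:156013445-156013694: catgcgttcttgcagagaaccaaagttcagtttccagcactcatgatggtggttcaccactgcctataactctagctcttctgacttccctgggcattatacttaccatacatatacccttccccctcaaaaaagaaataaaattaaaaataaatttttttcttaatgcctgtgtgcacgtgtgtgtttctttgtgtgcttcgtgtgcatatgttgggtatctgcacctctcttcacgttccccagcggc
Tnfrsf9, chr4:150927749-150927998: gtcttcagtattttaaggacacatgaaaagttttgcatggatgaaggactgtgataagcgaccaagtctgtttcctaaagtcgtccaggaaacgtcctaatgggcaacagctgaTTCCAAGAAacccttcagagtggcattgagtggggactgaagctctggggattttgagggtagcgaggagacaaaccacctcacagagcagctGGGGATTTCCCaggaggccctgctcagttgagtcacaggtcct
Tnfrsf18, chr4:156026072-156026321: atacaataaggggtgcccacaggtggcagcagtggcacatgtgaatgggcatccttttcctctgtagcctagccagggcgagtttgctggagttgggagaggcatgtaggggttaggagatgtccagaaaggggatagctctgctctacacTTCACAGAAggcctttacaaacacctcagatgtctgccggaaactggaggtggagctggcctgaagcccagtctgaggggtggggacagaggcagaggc
The Tnfrsf9 window held 2 overlapping NF-kB matches, read as the single run of capitals near its end, and a STAT-type match that starts 136 bases before the start. The Tnfrsf18 window held a STAT-type match 99 bases before its start, and the Tnfrsf4 window held neither. Another RefSeq start of Tnfrsf9 had neither match in its window. Of 32851 promoter windows of this length, 7.25% hold an NF-kB match and 7.02% a STAT-type match, and a match is a description of letters only. Tnfrsf4 and Tnfrsf18 are near neighbours on chromosome 4, at 156013843 to 156016612 and 156026164 to 156028895, and Tnfrsf9 lies at 150914562 to 150946102. The Tnfrsf9 gene overlaps Camta1 on the opposite strand, Tnfrsf18 overlaps the antisense gene Gm16008, Cd27 overlaps Vamp1 and Tnfsf9 overlaps Gm11110, and since the strand setting of the counting is not given in the sources used here, reads from such partners cannot be told apart.

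Cd27, a receptor of naive and memory T cells and of NK cells, broke the order of the other 3. Regulatory T-like cells read 282 CPM in UT, 197 CPM in BP replicate 1, 173 CPM in BP replicate 2 and 265 CPM in BPI, and CD8 T-like cells 193, 99.1, 145 and 184 CPM with 239 CPM in CD40. The difference between them was small (0.54 ± 0.19, edgeR adjusted p = 0.0249) and lost its call in 5 of 12 alternatives. Conventional CD4 T-like cells were lowest, at 29.8, 36.1, 45.8 and 68.5 CPM, and lay below CD8 T-like cells by -1.96 ± 0.27 (adjusted p = 2.05e-06). In the same contrast, where 6.73% of all genes and 5 of 6 costimulators tested were called, Tnfrsf4 was higher in the CD4 cells by 2.88 ± 0.33 (adjusted p = 4.46e-08) and Tnfrsf18 by 1.08 ± 0.23 (adjusted p = 0.00125). Cd27 lies on chromosome 6 at 125232622 to 125237010, minus strand.

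NK-like cells carried Tnfrsf9, Tnfrsf18 and Cd27 and hardly any Tnfrsf4. Tnfrsf9 read 285 CPM in UT, 224 CPM in IgG replicate 1, 166 CPM in BP replicate 1, 193 CPM in BP replicate 2, 280 CPM in BPI and 116 CPM in CD40, the lowest. Against CD8 T-like cells, with 40.8% of all genes called, NK-like cells were lower in Cd27 (-0.66 ± 0.19, edgeR adjusted p = 0.00943) and Tnfrsf9 (-0.58 ± 0.20, adjusted p = 0.0219), the last with its call lost in 6 of 13 alternatives. Tnfrsf4 was called lower too, but NK-like cells held 11 of its UMIs in all, beside 282 in CD8 T-like cells. It passed the low-count filter only through the CD8 T-like sums, so nothing further is read from its call. Tnfrsf18 did not differ beyond its error (0.02 ± 0.15, adjusted p = 0.951). Mast or basophil-like cells, with 20 or more cells in BP replicate 1 alone, read 263 CPM for Tnfrsf9 and 168 CPM for Tnfrsf18.

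Between treatments Tnfrsf9 in T-like cells was the one costimulator that passed edgeR's test. The level was 628 CPM in UT, 83.5 CPM in IgG replicate 1, 18.2 CPM (4 UMIs) in IgG replicate 2, 635 CPM in BP replicate 1, 168 CPM in BP replicate 2, 293 CPM in BPI and 135 CPM in CD40. Every treated library lay above both IgG libraries, and so did UT. Tnfrsf9 rose in BP against IgG by 2.89 ± 0.57 on the log2 scale (adjusted p = 0.0117), 1 call among 6 costimulators tested beside 0.195% of all genes, and in BPI by 2.78 ± 0.63 (adjusted p = 0.0444), 1 of 6 beside 0.239% of all genes. The BPI group has 1 library, so its spread too is taken from the other groups. Within the set of IgG replicate 1, BP replicate 2 and BPI the levels were 83.5, 168 and 293 CPM, and within the other set 18.2 CPM in IgG replicate 2 and 135 CPM in CD40, 1 library each. The BP call was lost without BP replicate 1 or without IgG replicate 2, and with UT pooled with IgG the difference fell to 0.41 (adjusted p = 1). The BPI call was lost without IgG replicate 2 (adjusted p = 0.829) and with DESeq2 (adjusted p = 0.3). In all, 6 of 18 alternatives lost the BP call and 6 of 14 the BPI call, with the direction kept in each.

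T-like cells differed in make-up between the same libraries. CD8 T-like cells made up 18.7% of them in UT, 29.3% and 22.4% in IgG, 38.3% and 49.8% in BP, 57.1% in BPI and 40.0% in CD40, and the IgG libraries held only 41 and 58 T-like cells. Regulatory T-like cells made up 12.0% in UT, 12.2% and 5.17% in IgG, 17.1% and 8.66% in BP, 6.13% in BPI and 14.6% in CD40. Cells in no subset made up 31.8%, 46.3% and 51.7%, 22.9% and 31.6%, 32.0% and 34.6% in the same order. Within CD8 T-like cells Tnfrsf9 had 1 UMI in the 12 cells of IgG replicate 1 and 0 UMIs in the 13 of IgG replicate 2. These sums are small, and 3 counts in them would give 66.3 and 52.8 CPM. The other libraries read 557 CPM in UT, 158 to 362 CPM in BP, 280 CPM in BPI and 76.8 CPM in CD40, the last close to those limits. The part of the make-up in the T-like difference was not tested. In NK-like cells, tested at 10 cells per library since IgG replicate 2 held 15, Tnfrsf9 did not differ from IgG in BP (-0.30 ± 0.51, adjusted p = 0.965) or BPI (0.53 ± 0.57, adjusted p = 0.999); the difference between the classes was not tested.

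The other receptors of T-like cells did not pass between treatments with edgeR or DESeq2. Tnfrsf4 read 483 CPM in UT, 212 and 31.8 CPM in the IgG libraries, 401 and 112 CPM under BP, 117 CPM under BPI and 126 CPM under the agonist, and the IgG and treated libraries overlapped. Tnfrsf18 read 344 CPM in UT, 190 and 95.4 CPM in the IgG libraries, 268 and 137 CPM under BP, 163 CPM under BPI and 119 CPM under the agonist, which also overlapped. Cd27 was lowest in IgG replicate 1, at 75.9 CPM, and highest in BPI, at 187 CPM. In tumour-like cells 7 costimulators were tested in each comparison and none passed edgeR's test in any, with 0 at an unadjusted p under 0.05 and 0% of all genes called.

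Among the ligands Cd40lg was found mainly in T-like cells. Conventional CD4 T-like cells read 76.2 CPM in UT, 79.7 CPM in BP replicate 1, 260 CPM in BP replicate 2 (17 UMIs) and 68.5 CPM in BPI (4 UMIs), and the T-like cells placed in no subset read 27.0 to 168 CPM. CD8 T-like cells stayed at or below 11.4 CPM in the 5 libraries with 20 or more, while the 13 of IgG replicate 2 held 8 UMIs. The difference between conventional CD4 and CD8 T-like cells was 3.74 ± 0.37 (edgeR adjusted p = 1.25e-09) and kept its call in all 12 alternatives. No Cd40lg UMI was found in B-like, dendritic-like or endothelial-like cells of any library with 20 or more. Regulatory T-like cells gave 0 UMIs in 34 cells of UT, 14 UMIs in 220 cells of BP replicate 1 (13.3 CPM), 3 UMIs in 20 cells of BP replicate 2 (57.7 CPM) and 2 UMIs in 37 cells of BPI (18.9 CPM), while the 19 cells of CD40 held 9 UMIs, all in 2 cells. The gene lies on chromosome X at 57212143 to 57224042.

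In T-like cells as a whole Cd40lg read 44.5 CPM in UT, 30.4 CPM (4 UMIs) in IgG replicate 1 and 150 CPM (33 UMIs) in IgG replicate 2. Both BP libraries (30.8 and 41.3 CPM), BPI (18.4 CPM) and the agonist library (32.1 CPM) were close to the former. IgG replicate 2 stood above all others and IgG replicate 1 lay among them. The fitted differences were -1.66 ± 0.53 for BP (adjusted p = 0.212) and -2.33 ± 0.67 for BPI (adjusted p = 0.198), neither called. Without IgG replicate 2 the BP difference turned to 0.11 (adjusted p = 0.993), the CD40 difference to 0.06 (adjusted p = 0.997) and the BPI difference to -0.57 (adjusted p = 0.998). Cd40lg was called lower in 3 of 18 alternatives for BP and 3 of 14 for BPI, among them the limit of 2000 UMIs per cell and the fit without IgG replicate 1 in both, and the BPI difference ranged from -3.36 to -0.57 (adjusted p from 0.00053 to 1).

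**Figure D4:**
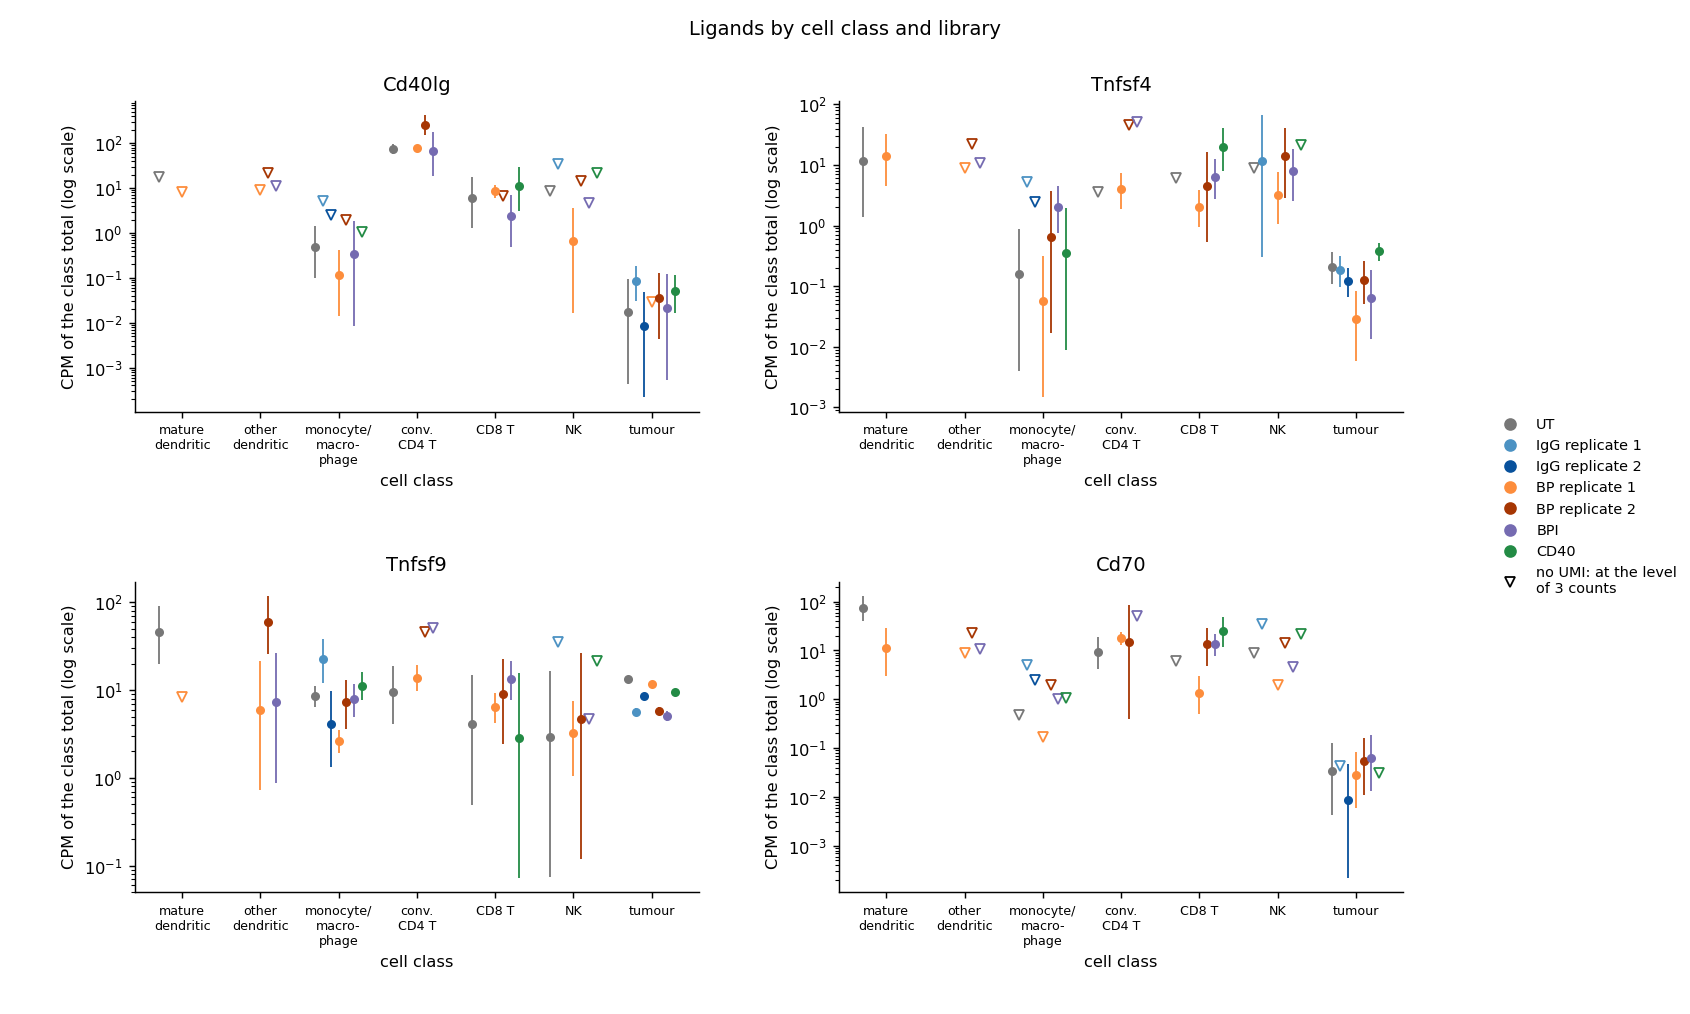
The ligands Cd40lg, Tnfsf4, Tnfsf9 and Cd70 in counts per 1000000 UMIs of the class (log axes), 1 point per library with at least 20 cells and its exact 95% Poisson interval; open triangles mark a library with no UMI at the level that 3 counts would give. Cd40lg stands in conventional CD4 T-like cells (68.5 to 260 CPM), Cd70 in mature dendritic-like cells (11.1 and 75.5 CPM), and Tnfsf9 is spread over classes, tumour-like cells included (5.03 to 13.4 CPM).

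Cd70, the ligand of CD27, was found in mature dendritic-like cells at 75.5 CPM in UT (13 UMIs) and 11.1 CPM in BP replicate 1 (4 UMIs), and in no other dendritic-like cell of a library with 20 or more. T-like cells also carried it, at 7.92 CPM in UT, 6.85 and 9.34 CPM in BP, 9.19 CPM in BPI (17 UMIs in 4 cells) and 14.7 CPM in CD40 (11 UMIs in 3 cells), with no UMI in the 41 and 58 T-like cells of IgG, which would allow up to 22.8 and 13.6 CPM at 3 counts. Conventional CD4 T-like cells lay above CD8 T-like cells (2.30 ± 0.58, edgeR adjusted p = 0.00821), a call lost in 2 of 8 alternatives. In monocyte/macrophage-like cells the 1779 cells of BP replicate 1 gave no Cd70 UMI, which allows up to 0.173 CPM.

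Tnfsf9 was low but present in tumour-like cells of every library. The levels were 13.4 CPM in UT, 5.61 and 8.59 CPM in IgG, 11.6 and 5.80 CPM in BP, 5.03 CPM in BPI and 9.55 CPM in CD40. The 3 libraries of one set (IgG replicate 1, BP replicate 2, BPI) were the lowest, between 5.03 and 5.80 CPM, and the IgG and BP libraries overlapped. Monocyte/macrophage-like cells read 2.65 to 22.4 CPM, and the other dendritic-like cells of BP replicate 2 reached 59.5 CPM (8 UMIs). Tnfsf4 was barely detected: tumour-like cells held 89 of its 199 UMIs (44.7%), 37 of them in CD40, at no more than 0.376 CPM in any library. CD8 T-like cells held 26 UMIs, 7 of them in 3 cells of CD40 (19.9 CPM), and NK-like cells held 14. Mature dendritic-like cells gave 2 UMIs in UT and 5 in BP replicate 1. Over all libraries these cells read 13.7 CPM from 8 UMIs, above the level of tumour-like cells. Regulatory T-like cells gave no Tnfsf4 UMI in 4 libraries. The ligand of GITR, Tnfsf18, had 104 UMIs in all cells, of which 35 were in unnamed cells of BP replicate 1. Monocyte/macrophage-like cells held 13 in CD40 (3 cells, 4.57 CPM) and 6 in IgG replicate 2 (3 cells, 4.96 CPM), and microglia-like cells held 13 in CD40 (7 cells, 1.36 CPM) and 3 in IgG replicate 2 (2 cells, 0.394 CPM).

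The partners and signalling genes of the family, 25 in all (TRAF adaptors, NF-kB subunits, their regulators and further receptor and ligand pairs) were taken as a list. Of this list and the list of 16, only Tnfsf18 was left out of the clustering. Ccl22, Ccl17, Cd83 and Traf1 were leading genes of the mature dendritic-like cluster, and Icos of the regulatory T-like cluster. The counts between classes thus describe clusters that these genes could help to form, and they are no independent test. In regulatory T-like against CD8 T-like cells 14 of 20 tested were higher and 1 lower, where 23.7% of all genes were called, with a median log2 difference of 0.81 beside -0.07 over all genes. Tnfrsf8 (CD30) was higher by 3.92 ± 0.42, Tnfrsf25 (DR3) by 3.52 ± 0.63, Icos by 1.90 ± 0.19 and Traf1, an adaptor that 4-1BB recruits, by 1.45 ± 0.19, while Map3k14, the kinase NIK of the alternative NF-kB pathway, was lower by -1.25 ± 0.37 (each called by edgeR). In conventional CD4 against CD8 T-like cells 3 of 19 were higher, led by Tnfsf8 (CD30 ligand, 3.70 ± 0.34), and none lower, beside 6.73% of all genes called. In dendritic-like against monocyte/macrophage-like cells 8 of 18 were higher and 1 lower, beside 23.6% of all genes called, among them Relb (2.39 ± 0.23) and Map3k14 (2.62 ± 0.21). Of the 16 genes induced through CD40, 8 were higher there and none lower, with Ccl22 (6.73 ± 0.43) and Cd80 (2.33 ± 0.34) among them. This was not particular to dendritic-like cells. In regulatory T-like against CD8 T-like cells 9 of 12 tested were higher and none lower. In endothelial-like against tumour-like cells 8 of 13 were higher and none lower, beside 47% of all genes called. The remaining class contrasts had calls in both directions. None of the 25 passed in any treatment comparison in monocyte/macrophage-like, T-like or tumour-like cells; with edgeR the smallest unadjusted p was 0.00063.

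By likeness of pattern over the same 67 sums, the most similar genes were ranked for each costimulator with at least 200 UMIs. Cd40 was most like Dnase1l3 (r = 0.88), H2-Aa (0.86) and H2-Eb1 (0.85), the last a pair of class II antigen presentation genes. Cd40lg was most like Krt83 (0.89), Trat1 (0.88) and Podnl1 (0.83). Tnfrsf4 was most like Il2ra (0.90), Sdf4 (0.88), whose gene lies 233 bases from it, and Izumo1r (0.87). Tnfrsf9 was most like Gzmb (0.88) and Camk4 (0.87), and Tnfrsf18 like Camk4 (0.90), Rhof (0.89) and Icos (0.89). Cd27 was most like Gimap7 (0.93), Sidt1 (0.92) and Lck (0.91), and Tnfsf9 had no gene above 0.65 (Ndrg4). Il2ra and Izumo1r were also markers of the regulatory T-like class, and the sums share libraries and depth.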

How the data were processed

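The authors deposited raw UMI counts per gene and barcode for each library; the matrix header names Cell Ranger 4, and per the submitters' processing notes Cell Ranger 7.0.1 and the mm10 build were used. The counting strand is not given in the sources used here. Cells had to hold 1000 UMIs and 500 genes, with no more than 15% of UMIs mitochondrial (Python 3.11.15, scanpy 1.11.5), and doublets were removed at a rate of 0.8% per 1000 cells, 3207 in all. Clusters (Leiden resolution 1 on 2000 variable genes and 30 components, 15 neighbours, then sub-clusters) were named from 23 marker lists when at least 3 markers were raised; the 9 genes and Tnfsf18 took no part in clustering. Counts were summed per class and library and given per 1000000 UMIs. Sums with at least 20 cells were tested with edgeR 4.0.16 (TMM, low-count filter, quasi-likelihood test, Benjamini-Hochberg over all genes, threshold 0.05): treatments against IgG over the 6 libraries other than UT, and classes with library as a block. p-values measure the spread between pooled libraries, which the labels do not describe as separate experiments. Alternatives were RLE size factors, DESeq2 1.42.0, no filter, doublets kept, at least 2000 UMIs, free RNA (from barcodes with 10 to 100 UMIs) subtracted, at least 10 cells, UT pooled with IgG, a replicate block and each library left out. The edgeR fits were also run on simulated counts, with results not reported here. Those counts gave all genes the same spread, so they do not measure the spread between these libraries.

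The 9 members and the lists of 25 and 16 genes, which share 6 genes, were chosen with earlier results of these data known, and the rule for naming clusters, the sub-clustering and the division of T-like cells were set after seeing the data. All 9 members are named whatever their values; from a list, the text names genes called in a contrast or those with the smallest p. Promoters were matched by symbol in RefSeq for 4 of the 9 members. A companion gene of the likeness ranking is not reported here.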

Additional observations from a re-analysis of the deposited data

Results flagged for a closer look

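Costimulators were also found in clusters that stayed unnamed, which enter no comparison above. Cd40 stood at 92.1 CPM in cluster mye03 (99 cells), 58.24 CPM in mye04 (314 cells) and 77.05 CPM in mye16 (75 cells). In these clusters C1qa and C1qb were among the leading genes, and the highest level in tumour-like cells was 1.69 CPM. The mye04 cells came only from UT (52) and BP replicate 1 (262), the libraries with 2 and 1 microglia-like cells. All mye03 cells came from UT. Tnfrsf4 stood at 89.54 CPM in mye03, beside at most 1.21 CPM in tumour-like cells. In the lymphoid cluster lym15 (124 cells) Tnfrsf9 read 338 CPM, Tnfrsf18 142.3 CPM and Tnfsf4 19.88 CPM, beside at most 8.62, 5.42 and 0.376 CPM in tumour-like cells. Gzma and Gzmb led this cluster, and 27 of its cells came from CD40, a library with 32 NK-like cells. Its cells take no part in the NK-like levels above. Each was picked out because it lay above the level in tumour-like cells, in cells that no class holds.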

How the results depend on the processing

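The comparison of CD40 with IgG gave 0 called costimulators in every alternative run. BP against IgG gave 1 call, which became 2 with DESeq2, without the low-count filter, at 2000 UMIs and with a replicate block, 3 with the replicate numbers crossed, and 0 with doublets kept, free RNA subtracted, UT pooled with IgG or the 4 IgG and BP libraries fitted alone; leaving out 1 library gave 0 to 3. BPI against IgG gave 1 call, which became 2 without the filter and at 2000 UMIs and 0 with RLE size factors, doublets kept, free RNA subtracted or UT pooled; leaving out 1 library gave 0 to 3, and the 1 call of DESeq2 was Cd40 in monocyte/macrophage-like cells in place of Tnfrsf9. The 12 calls between T subsets and NK-like cells became 7 at 2000 UMIs, where the conventional CD4 contrast gave no value. They became 7 with regulatory T cells taken by Foxp3 UMIs, where the regulatory contrast gave no value, and 8 to 12 without 1 library. The 12 calls between the other classes became 8 to 12 without 1 library. At 10 cells, where more class contrasts could be fitted, there were 18. Shares over all genes are printed for the main fits only, so these counts show only how the calls moved.

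Replicate numbers did not pair the libraries: same-numbered libraries had correlations of deviations of -0.250, -0.0589 and -0.698 in monocyte/macrophage-like, T-like and tumour-like cells. With the replicate block Cd40 in monocyte/macrophage-like cells was 3.20 (edgeR adjusted p = 0.0184). The crossed pairing and the fit of 4 libraries were chosen after seeing the data.

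Direction reversed in 4 cases, whose cause was not tested. With UT pooled with IgG, Cd40 in monocyte/macrophage-like cells of BP was -0.00999, and that of CD40, -1.12 before, was -4.23. Leaving out 1 library moved Cd40 in monocyte/macrophage-like cells of CD40 between -2.02 (without IgG replicate 2) and 0.34 (without IgG replicate 1), Cd40lg in T-like cells of BP between -2.33 (without IgG replicate 1) and 0.11 (without IgG replicate 2), and Cd40lg in T-like cells of CD40 between -2.39 and 0.0587, without the same libraries. The IgG libraries held 41 and 58 T-like and 76 and 61 monocyte/macrophage-like cells, and CD40, BPI and UT are 1 library each. UT and BP replicate 1 are each alone in their library set, so that set and treatment cannot be told apart for them. CD40 shares its set with 1 IgG library.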
